A study of Danio rerio with 12 samples.

Results

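Poly I:C is a synthetic double-stranded RNA that mimics a product of viral replication. Its effect was followed here in whole zebrafish larvae at 3 days after fertilisation that carried the transgene Tg(ifih1_mut), by setting 3 stimulated pools of these larvae against 3 unstimulated pools of the same line. These 6 pools were chosen by their labels alone, out of 12 pools in the study. The other 6 were 3 stimulated and 3 unstimulated pools of control larvae, which the labels describe only as control. Each pool held 25 larvae, from which total RNA was extracted and sequenced. The sources used here do not give the promoter that drives the transgene, the mutation it carries or how many founders the line has. Nor do they give how much poly I:C was used, how it was delivered or for how long. The study's title presents the line as a model of Aicardi-Goutières syndrome, a human disease in which type I interferon signalling runs without infection. Tg(ifih1_mut) is written ifih1mut from here on.

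As background, ifih1 encodes MDA5, a cytosolic helicase that binds long double-stranded RNA and, through the mitochondrial adaptor Mavs, activates the transcription factors Irf3 and Irf7. These switch on interferon genes. Secreted interferon then acts through its receptors, the Janus kinases and the STAT proteins on a large set of interferon-stimulated genes, many of which encode antiviral proteins, and several of these genes feed back on the sensing steps.

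The stimulated ifih1mut pools (libraries A72, A73 and A74 in the file headers) held between 33401891 and 37361779 counts over all genes, and the unstimulated ifih1mut pools (A75, A76 and A77) between 34497993 and 75753738. All levels below are library-scaled counts (CPM) after TMM normalisation, given in that order of pools. Separate clutches are not mentioned in the labels. Each p-value therefore covers only the spread between pools within the 4 groups of the 12 libraries, and that spread may be technical. Libraries at the same position in their groups deviated together, and the main test counts this as spread. In RNA from whole larvae, more cells of a type and more RNA per cell cannot be told apart.

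Poly I:C gave a response in ifih1mut larvae that ran almost wholly upwards and included genes of the interferon pathway and many genes without a common name. Of 26508 genes tested, 181 rose (0.683%) and 2 fell (0.00754%) at an adjusted p under 0.05 in edgeR's quasi-likelihood test over all 12 libraries. Without adjustment, 674 higher and 292 lower genes had p under 0.05. Together these were 966 genes, fewer than the 1325 that an even spread of p-values would give. The lack of a call or of a low p-value in this test therefore does not show that a gene was stable. For all 181 genes the 3 stimulated pools lay above the 3 unstimulated pools with no overlap. A low p-value favours such separation, and the share of all tested genes that show it was not counted. A lack of overlap, here and for single genes below, is thus no support beyond the test. The median fold change among the 181 genes was 13.8. Of these, 34 rose over 100-fold, 73 between 10- and 100-fold, 70 between 2- and 10-fold and 4 by at most 2-fold. The median log2 fold change of all genes tested was -0.01, and 46.5% of them had a positive value. The count of higher genes changed with single pools left out: it was 116 without A74, 105 without A75, 106 without A76 and 89 without A77. Leaving out a library also leaves fewer pools to estimate the spread. A lost call, here and below, thus need not mean that the call rested on that pool. Of the 181 genes, 85 passed the threshold whichever of the 12 libraries was left out.

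**Figure D1:**
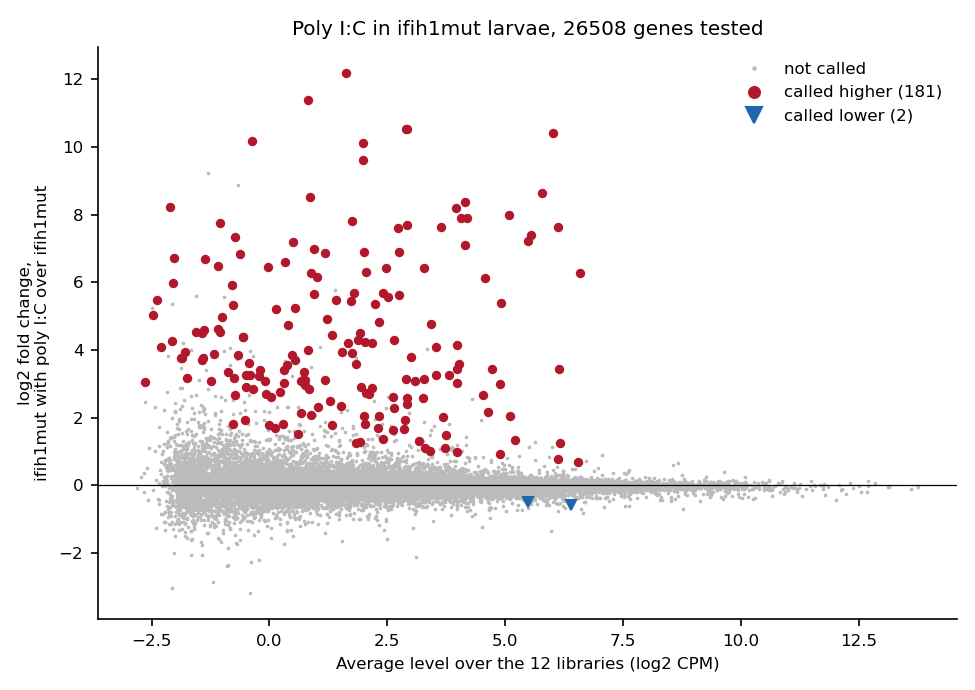
Log2 fold change of poly I:C over no stimulation in ifih1mut larvae against the average level over the 12 libraries (log2 CPM), 1 point per gene tested, with grey dots for genes that missed the threshold. The 181 higher genes (red) lie mostly far above the cloud at low and middle levels, while the 2 lower genes (blue triangles) sit just under 0.

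Most genes that rose had low unstimulated levels. Among genes with an unstimulated mean from 0.1 to 1 CPM, 76 of 3849 rose, with a median log2 fold change of 3.98 among those that rose. From 1 to 10 CPM, 51 of 10494 rose, with a median of 2.62. Over 10 CPM, 10 of 12091 rose, with a median of 1.29. Under 0.1 CPM, 44 of 74 rose, but a gene this low enters the test only through a group in which it is high, as do genes in the lower part of the range from 0.1 to 1 CPM. A low gene also needs a large fold change to pass, so these shares and medians describe the genes called and say nothing about such genes at large. Shares and medians of gene lists and families below count tested members alone, and carry the same limit where members were this low. In 4 genes no count was seen in any unstimulated ifih1mut pool. Against a floor of 3 counts over the group, CU207281.2 was at least 706-fold higher and the finTRIM gene ftr11 at least 45.1-fold higher in the stimulated pools. The other two, an assembled transcript and a gene with a project name, were at least 402-fold and at least 177-fold higher. These 4 genes were picked out after their values were seen, and their calls were lost with some single libraries left out. CU207281.2 missed the threshold without A74, A75, A76, A77, A79 or A80, and ftr11 missed it without A72, A74, A75, A76 or A77. The assembled transcript missed it without A75, A76, A77 or A79, and the gene with a project name without A76 or A77.

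Together the 181 genes took up 0.39%, 0.297% and 0.77% of all counts in the stimulated pools, against 0.0537%, 0.0516% and 0.0507% in the unstimulated pools. The unstimulated pools lay close to each other, and every stimulated pool lay several-fold above them, with A74 the highest. The 5 genes with the highest levels carried 27.2% of the summed CPM of the 181 genes.

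The targeted gene itself came first among the checks. ifih1 (ENSDARG00000018553, chromosome 9, 51147380-51217396 in the deposited coordinates, whose build no source used here names) had 17.5, 25.3 and 33.3 CPM in the stimulated ifih1mut pools, against 11.1, 14 and 17.1 CPM in the unstimulated ones. All 3 stimulated values were above the 3 unstimulated ones, but the lowest of them was barely above the highest unstimulated value. The log2 fold change was 0.85 (SE 0.23) with an adjusted p of 0.27, and it passed the threshold without A72 (1.07, adjusted p 0.049) and by DESeq2 (adjusted p 0.049). Both groups were far above the controls, at 2.06 ± 0.173 CPM in stimulated and 2.34 ± 0.376 CPM in unstimulated control pools (SD, n = 3 each), which fits the labels. Reads from the native gene and from the transgene were not told apart.

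Among the sensing genes in the list, the largest rise was in the second RIG-I-like receptor gene. dhx58 encodes Lgp2, a helicase of the same family as MDA5 that lacks the signalling domains. It had 95.6, 96.2 and 210 CPM in stimulated pools, against 0.374, 0.633 and 0.52 CPM in unstimulated pools. The groups were separated by more than 100 times, and the log2 fold change was 7.98 (SE 0.64, adjusted p 0.00028). trim25, whose mammalian counterpart encodes a ubiquitin ligase acting on RIG-I, had 1.69, 1.76 and 3.86 CPM in stimulated pools, against 0.173, 0.234 and 0.688 CPM in unstimulated pools. Its log2 fold change was 2.7 (SE 0.53, adjusted p 0.049), and it missed the threshold when any library other than A77 was left out, with values from 2.2 without A74 to 3.55 without A77. These were the 2 of 15 tested members of the sensing list that rose, and the list's median log2 fold change was 0.16. mb21d1, a DNA-sensing gene outside that list, named after its values were seen, was called higher too. Its log2 fold change ran from 2.46 to 3.62 with 1 library left out, and its call was lost without A74, A75, A76, A77, A78 or A82. tmem173, the gene of the DNA-sensing adaptor Sting, had 2.78, 2.67 and 5.32 CPM in stimulated pools, against 1.64, 1.47 and 1.12 CPM in unstimulated pools, and did not pass (log2 1.35, adjusted p 0.1). mavs, chosen for description after its values were seen, had 25.7, 23.9 and 27.8 CPM in stimulated pools, against 26.5, 25 and 22.9 CPM in unstimulated pools, so the groups overlapped. A gene named ddx58 was not among the names in the files. A pair of assembled transcripts on an unplaced scaffold, which the deposited annotation likens to human DDX58, passed the test, and 1 of the pair missed the threshold without A75, A76 or A77.

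The transcription factors of the pathway rose in part. irf7, which drives interferon genes in the amplifying phase of the response, had 31.4, 24.7 and 68.6 CPM in stimulated pools, against 4.17, 4.2 and 4.68 CPM in unstimulated pools. The unstimulated pools were nearly equal, and the log2 fold change was 3.25 (SE 0.33, adjusted p 0.0007). irf3 had 10.4, 7.02 and 21.5 CPM in stimulated pools, against 1.06, 2.66 and 1.53 CPM in unstimulated pools (log2 2.87, SE 0.48, adjusted p 0.02). Its call was lost without A74, A75 or A77, with adjusted p from 0.067 to 0.13. irf10, another member of the family, had 3.75, 4.4 and 7.32 CPM in stimulated pools, against 0.978, 0.688 and 0.52 CPM in unstimulated pools (log2 2.84, SE 0.32, adjusted p 0.0013). Thus 3 of 13 tested interferon regulatory factors rose, and the median of the list was 0.43 on the log2 fold change scale. irf9, the DNA-binding partner of the STAT proteins, had 20.9, 18 and 29.9 CPM in stimulated pools, against 12.7, 10.9 and 9.42 CPM in unstimulated pools. Those groups did not overlap either, but the test missed (log2 1.06, adjusted p 0.066). With a replicate block by library order irf9 passed (adjusted p 0.02), as it did without A73 (adjusted p 0.043).

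The interferon genes were scarcely read, and are given as counts that are not scaled to library size. A75, A76 and A77 held 34497993, 75753738 and 65922758 counts over all genes, and the stimulated pools 33401891 to 37361779. ifnphi1, the main virus-induced interferon gene of zebrafish larvae, had 22, 8 and 39 counts in stimulated pools, against 2, 19 and 15 counts in unstimulated pools. These ranges overlapped, and the log2 fold change was 1.72 (SE 0.72, adjusted p 1.0). ifnphi2, ifnphi3, ifnphi4 and the type II gene ifng1 were under the filter on low counts and were not tested. ifnphi3 had the most reads among them, with 8, 2 and 5 counts in stimulated pools, against 5, 11 and 8 counts in unstimulated pools. A difference in interferon transcripts was thus not detectable at this depth. Of these 5 genes, ifnphi1 was the only 1 with enough reads to test, and all were described after their values were seen.

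Among genes of feedback, usp18 passed the test. It encodes the protease that removes ISG15 from proteins and also restrains interferon receptor signalling. It had 4.22, 2.55 and 7.55 CPM in stimulated pools, against 0.719, 0.523 and 0.443 CPM in unstimulated pools (log2 3.1, SE 0.4, adjusted p 0.003). It was the member of 18 tested feedback inhibitors that rose, and the list's median was 0.05 on the log2 fold change scale. socs1a, which encodes an inhibitor of Janus kinases, had 6.04, 5.55 and 13.4 CPM in stimulated pools, against 3.39, 2.15 and 4.05 CPM in unstimulated pools. The groups did not overlap, the log2 fold change was 1.38 and the adjusted p 0.35, and it passed with the replicate block (adjusted p 0.0091) and by DESeq2 (adjusted p 0.044). socs3b, from the same family, had 30.1, 33.1 and 32.4 CPM in stimulated pools, against 30.8, 24.8 and 25.2 CPM in unstimulated pools (log2 0.24, adjusted p 1.0).

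Several genes of the ISG15 system rose. isg15 encodes a ubiquitin-like protein that is attached to other proteins during the interferon response. It had 155, 121 and 277 CPM in stimulated pools, against 0.834, 0.675 and 1.73 CPM in unstimulated pools (log2 7.39, SE 0.66, adjusted p 0.00042). Per kilobase of gene length it had a mean level of 162 FPKM in stimulated pools, against 0.945 FPKM in unstimulated pools. By that level isg15 ranked 378 among the tested genes in stimulated pools, against 20636 in unstimulated pools. uba7, the activating enzyme of ISG15, had 13, 10.9 and 24.3 CPM in stimulated pools, against 2.73, 2.34 and 2.75 CPM in unstimulated pools (log2 2.62, SE 0.31, adjusted p 0.0018). The gene the files call HERC5, which the reference names herc56.1, resembles the human ligase of ISG15 and had 19.7, 9.16 and 49.6 CPM in stimulated pools, against 0.144, 0.151 and 0.107 CPM in unstimulated pools. Its log2 fold change was 7.59 (SE 0.89, adjusted p 0.0017), and 6.73 without A74. With usp18, 4 of 7 tested genes of the system rose, and the median of the 7 was 2.62 on the log2 fold change scale. ube2l3a, a conjugating enzyme shared with ubiquitin, had 17.7, 21.4 and 20.6 CPM in stimulated pools, against 16.2, 25.5 and 16.6 CPM in unstimulated pools, with overlapping groups. The related ligase gene herc4 had 19.2, 20 and 19.2 CPM in stimulated pools, against 18.8, 18.2 and 17.3 CPM in unstimulated pools (log2 0.1, adjusted p 1.0).

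Antiviral effectors made up 25 of the 181 higher genes. Of 47 tested genes in the list, 25 rose, none fell and 42 had a positive log2 fold change, with a median of 2.23. The summed level of the list was 1140, 987 and 2540 CPM in stimulated pools, against 267, 277 and 261 CPM in unstimulated pools. The unstimulated sums were almost equal, and A74 was more than 2 times as high as the other stimulated pools.

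rsad2 and cmpk2 lie next to each other on chromosome 17, at 35357451-35361322 and 35362851-35375448. rsad2 encodes viperin, which makes a chain-terminating nucleotide from CTP, and cmpk2 encodes a mitochondrial kinase that supplies its substrate. rsad2 had 46.5, 49.7 and 119 CPM in stimulated pools, against 0.23, 0.317 and 0.321 CPM in unstimulated pools (log2 7.9, SE 0.8, adjusted p 0.00073). cmpk2 had 20.7, 14.1 and 54.7 CPM in stimulated pools, against 0.201, 0.124 and 0.122 CPM in unstimulated pools (log2 7.69, SE 0.71, adjusted p 0.00044). In the 3 pairs of pools taken by library order (A72 over A75, A73 over A76, A74 over A77), the log2 ratios of CPM + 0.5 were 6.01, 5.94 and 7.19 for rsad2 and 4.92, 4.55 and 6.47 for cmpk2. Both neighbours were highest in the pair of A74. Without A74 the log2 fold change of cmpk2 was 6.90, still past the threshold.

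The Mx genes encode dynamin-like GTPases that trap viral components. mxa had 47, 35.7 and 125 CPM in stimulated pools, against 0.403, 0.744 and 0.321 CPM in unstimulated pools (log2 7.1, SE 0.63, adjusted p 0.00042). mxb, its neighbour on chromosome 1, had 28.1, 21.5 and 98 CPM in stimulated pools, against 0.259, 0.344 and 0.138 CPM in unstimulated pools (log2 7.62, SE 0.73, adjusted p 0.00052). mxe, on chromosome 9, had 50.2, 32.6 and 113 CPM in stimulated pools, against 0.431, 0.165 and 0.275 CPM in unstimulated pools (log2 7.9, SE 0.9, adjusted p 0.0013). All 3 went up to a similar degree, and without A74 the log2 fold changes were 6.36, 6.64 and 7.23 for mxa, mxb and mxe. The other 4 tested Mx genes did not pass. Among those, looked at after their values were seen, mxc had 6.51, 8.66 and 14.3 CPM in stimulated pools, against 3.94, 4.94 and 2.06 CPM in unstimulated pools (log2 1.43, adjusted p 0.72).

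The IFIT genes encode proteins that bind foreign RNA ends in mammals. Of 10 tested, 6 rose, and the median of the 10 was 4.52 on the log2 fold change scale. Several members, such as ifit10 and ifit14, entered the test only through the stimulated ifih1mut pools. The filter on low counts thus raises this share and median, which are no support for a rise of the family. The family was chosen after its values were seen. Of these 6, 3 were still called without A74, 3 without A75, 3 without A76 and 3 without A77. ifit8 had 7.1, 10.9 and 28.8 CPM in stimulated pools, against 0.115, 0.0275 and 0.245 CPM in unstimulated pools (log2 6.89, SE 0.83, adjusted p 0.0019). ifit10 had 5.49, 6.08 and 15.1 CPM in stimulated pools, against 0.144, 0.0413 and 0.0612 CPM in unstimulated pools (log2 6.87, SE 0.76, adjusted p 0.0011). Both were nearly silent before stimulation, and ifit8 moved to 6.1 without A74 and 7.99 without A77, and ifit10 to 6.24 without A74. ifit14 had 3.12, 2.82 and 6.37 CPM in stimulated pools, against 0.23, 0.11 and 0.0153 CPM in unstimulated pools (log2 5.22, SE 0.73, adjusted p 0.0056; 5.96 without A75). ifit12 had 1.54, 1.41 and 2.82 CPM in stimulated pools, against 0.403, 0.688 and 0.627 CPM in unstimulated pools and missed the threshold (log2 1.72, adjusted p 0.067; 0.042 with the replicate block).

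Large RNA helicases and ligases rose as well. helz2, a helicase first described as a nuclear receptor coactivator, had 26.7, 22.6 and 61.3 CPM in stimulated pools, against 0.46, 0.399 and 0.428 CPM in unstimulated pools (log2 6.43, SE 0.47, adjusted p 0.00028). znfx1, whose mouse counterpart senses double-stranded RNA, had 87.2, 64.6 and 179 CPM in stimulated pools, against 4.43, 1.43 and 2.28 CPM in unstimulated pools (log2 5.39, SE 0.62, adjusted p 0.0015). rnf213b, which encodes a giant ubiquitin ligase, had 14.1, 14 and 35.9 CPM in stimulated pools, against 0.115, 0.317 and 0.26 CPM in unstimulated pools (log2 6.43, SE 0.58, adjusted p 0.00042; 5.84 without A74). In each of these the lowest stimulated pool exceeded the highest unstimulated pool at least 10 times. The paralogue rnf213a had 38.3, 52.5 and 122 CPM in stimulated pools, against 16.8, 15.8 and 19.3 CPM in unstimulated pools (log2 2.04, adjusted p 0.026). Its call was lost without A75, A76 or A77, and its value was 1.39 without A74. The mov10 family of RNA helicases rose in 4 of 4 tested members, with log2 fold changes from 1.34 to 5.37, and 2 of these are assembled transcripts on an alternate contig. mov10a lost its call without A75 or A77, and mov10b.1 without A73, A74, A75, A76, A77, A80 or A83. xaf1, which encodes a binding partner of the apoptosis inhibitor XIAP, had 13.6, 15 and 35.3 CPM in stimulated pools, against 0.431, 0.413 and 0.505 CPM in unstimulated pools (log2 5.55, SE 0.5, adjusted p 0.00042). rnf213a and the mov10 family were chosen after their values were seen.

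**Figure D2:**
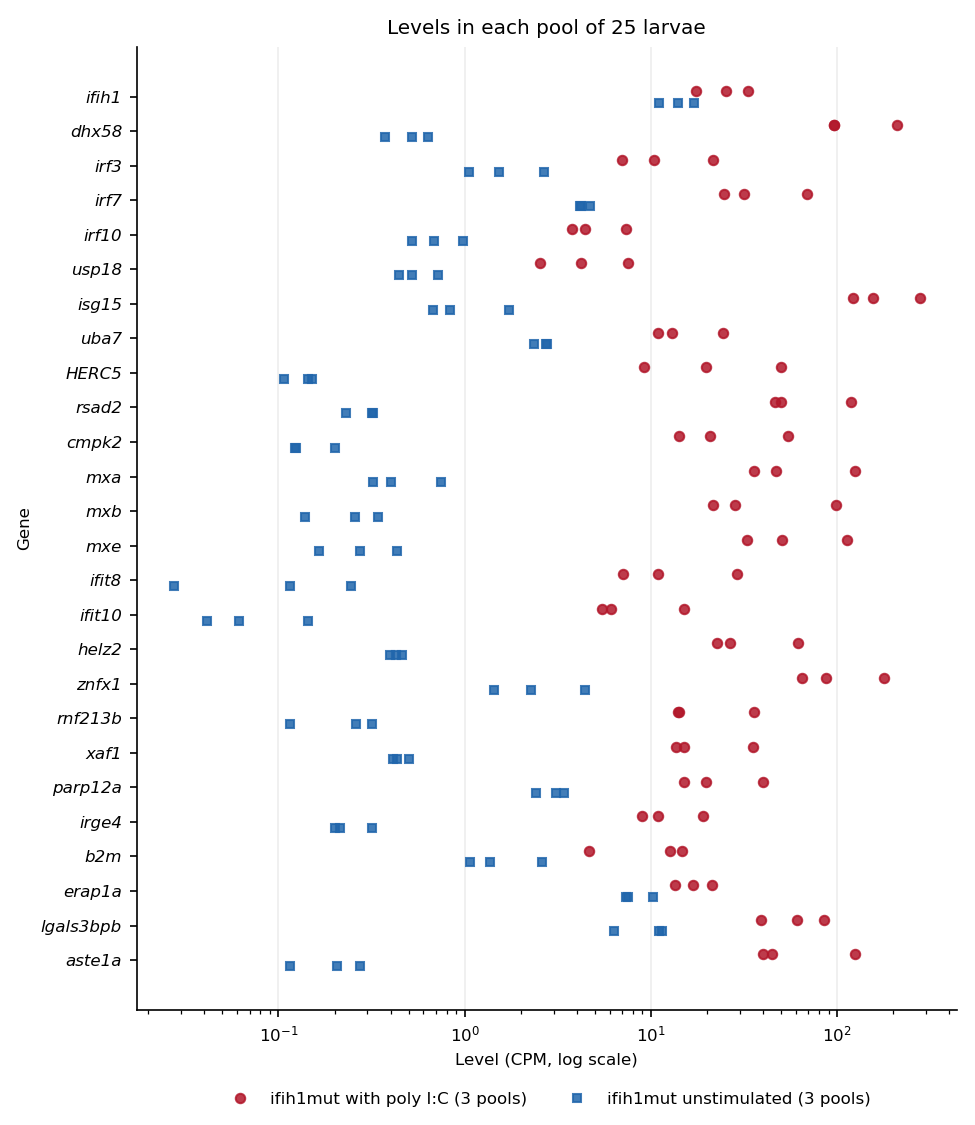
Levels of 26 genes in each pool of 25 ifih1mut larvae (CPM, log axis), with red circles for the 3 stimulated pools and blue squares for the 3 unstimulated pools. The circles stand clear of the squares for every gene shown except ifih1, where the groups nearly touch.

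The enzymes that act on double-stranded RNA rose to unequal degrees; both were picked after their values were seen. pkz, a kinase of fish that binds Z-form nucleic acid and blocks translation, had 10.7, 8.04 and 35.6 CPM in stimulated pools, against 0.604, 0.702 and 0.581 CPM in unstimulated pools (log2 4.84, SE 0.59, adjusted p 0.002; 3.89 without A74). adar, the editing enzyme that converts adenosine to inosine and whose human counterpart is another gene of Aicardi-Goutières syndrome, had 95.8, 82.6 and 126 CPM in stimulated pools, against 59.5, 54.7 and 62.1 CPM in unstimulated pools. The change in adar was small beside those above (log2 0.79, SE 0.14, adjusted p 0.027), and it missed the threshold without any 1 of A72, A74, A75, A76, A77 and A80.

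The highest levels per length belonged to ifi27 genes, small interferon-stimulated genes of which 7 tested copies lie in a row on chromosome 13 (37605896-37649595). zgc:123068, named ifi27.1 in the reference, had 213, 177 and 722 CPM in stimulated pools, against 2.76, 6.33 and 5.11 CPM in unstimulated pools (log2 6.27, SE 0.66, adjusted p 0.00086). It had the highest mean of the 181 genes per length, 303 FPKM in stimulated pools against 3.87 FPKM in unstimulated pools. zgc:152791 (ifi27.2) had 132, 132 and 512 CPM in stimulated pools, against 0.0863, 0.358 and 0.0612 CPM in unstimulated pools (log2 10.42, SE 1.07, adjusted p 0.00077). Of the 7 copies in the row, 6 rose, with log2 fold changes from 4.08 to 10.42, and si:dkey-188i13.8 did not pass (log2 1.39, adjusted p 0.77). Another copy outside that span, si:dkey-188i13.11, had 22.7, 21.1 and 39.5 CPM in stimulated pools, against 15.4, 17.5 and 13.4 CPM in unstimulated pools, and did not pass either (log2 0.85, adjusted p 0.24). Without A74 the values were 5.34 for zgc:123068 and 9.46 for zgc:152791, and 11.79 for zgc:152791 without A76. Near-identical copies may share reads, which the deposited counts do not resolve. The family was chosen after its values were seen, except for si:dkey-188i13.7 (log2 7.23; 6.53 without A74).

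Genes that rose often lay beside each other. Of the 181, 154 are on assembled chromosomes, and 61 of these had another higher gene within 100 kb. Among all 811 tested genes within 100 kb of a higher gene, 7.52% were themselves higher, against 0.681% of tested genes on chromosomes. There were 26 such groups, and 4 held at least 3 higher genes. Besides the ifi27 row these were 5 finTRIM genes on chromosome 15 (41711743-41756507), all 5 tested there, 3 of 6 tested genes around other finTRIM genes on chromosome 2 (59174872-59303406), and ifit10, ifit9 and BX000534.1 as 3 of 4 tested genes on chromosome 12 (16997206-17035339). Tandem copies have similar sequences, so neighbours are not independent measurements. The pairs rsad2 with cmpk2 and mxa with mxb were also among these groups. ifit9 (log2 4.49; 3.75 without A74) lost its call without A74, A75, A76 or A77. These neighbourhoods were chosen after the values were seen.

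The finTRIM genes form a large fish family of TRIM ubiquitin ligases. Of 46 tested, 12 rose, with log2 fold changes from 1.71 to 8.22, none fell, and the median of the 46 was 1.25. The family was chosen after its values were seen. Some members, such as ftr11 and ftr72, entered the test only through the stimulated ifih1mut pools, which raises this share and median. Of these 12, 7 were still called without A72, 3 without A74, 2 without A75, 3 without A76 and 2 without A77. ftr90, of the chromosome 15 group, had 10.4, 7.1 and 22.9 CPM in stimulated pools, against 0.633, 0.799 and 0.673 CPM in unstimulated pools (log2 4.25, SE 0.39, adjusted p 0.00042; 3.63 without A74). ftr72 had 2.91, 1.38 and 6.59 CPM in stimulated pools, against 0, 0.0413 and 0.0612 CPM in unstimulated pools (log2 6.45, SE 0.81, adjusted p 0.0025; 5.7 without A74). ftr56 had 7.31, 7.98 and 15.7 CPM in stimulated pools, against 2.7, 3.81 and 2.94 CPM in unstimulated pools (log2 1.71, SE 0.28, adjusted p 0.016), and its call was lost without A75 or A77. ftr90 and ftr72 passed whichever library was left out, while ftr88 (log2 5.98, adjusted p 0.017) lost its call without A74, A75, A76 or A77, with values of 5.2 without A74 and 8.29 without A76. The whole list of TRIM, finTRIM and bloodthirsty genes had 16 of 120 members higher and a median of 0.17 on the log2 fold change scale. The count was 8 without A72, 3 without A74, 3 without A75, 5 without A76 and 3 without A77. Of 19 tested bloodthirsty genes 3 rose, and the median of the 19 was 0.14 on the same scale.

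In the lists of interferon-inducible GTPases and ADP-ribosyltransferases, a few members each rose. irge4, of the immunity-related GTPases that attack pathogen vacuoles in mammals, had 8.95, 10.9 and 19 CPM in stimulated pools, against 0.201, 0.317 and 0.214 CPM in unstimulated pools (log2 5.68, SE 0.46, adjusted p 0.00028). gbp1, a guanylate-binding protein gene, had 8.2, 12.7 and 16.4 CPM in stimulated pools, against 4, 4.39 and 3.65 CPM in unstimulated pools (log2 1.63, SE 0.24, adjusted p 0.0079; call lost without A77). These were the 2 of 8 tested GTPase genes that rose, and the list's median was 1.04 on the log2 fold change scale. parp12a, which encodes a mono-ADP-ribosyltransferase, had 15, 19.8 and 39.9 CPM in stimulated pools, against 3.42, 3.08 and 2.4 CPM in unstimulated pools (log2 3.07, SE 0.32, adjusted p 0.00079). si:ch211-219a4.3, named parp14rs1 in the reference, had 25.1, 22.4 and 38.7 CPM in stimulated pools, against 8.17, 7.13 and 6.04 CPM in unstimulated pools (log2 2.02, SE 0.22, adjusted p 0.001). With parp11 (log2 3.77, adjusted p 0.016), 3 of 18 tested genes of that list rose, and the median of the list was 0.36 on the log2 fold change scale. parp11 lost its call without A74, A75, A76 or A77, with a value of 3.13 without A74. A wider parp14 family, with parp14rs1 and genes outside that list, had 5 of 6 tested members higher. Their log2 fold changes ran from 2.02 to 4.59, and 3 were still called without A74, and 3 each without A75, A76 and A77. The family was chosen after its values were seen.

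A few genes of antigen presentation rose, to unequal degrees. b2m, which encodes the small subunit of class I molecules, had 12.7, 4.67 and 14.6 CPM in stimulated pools, against 2.59, 1.36 and 1.07 CPM in unstimulated pools (log2 2.69, SE 0.52, adjusted p 0.045). tap2a, a subunit of the peptide transporter, had 0.468, 0.793 and 2.14 CPM in stimulated pools, against 0.0863, 0.0964 and 0.0612 CPM in unstimulated pools (log2 3.76, SE 0.67, adjusted p 0.027). erap1a, a peptide-trimming protease gene, had 16.8, 13.4 and 21.3 CPM in stimulated pools, against 7.33, 10.3 and 7.52 CPM in unstimulated pools (log2 1.03, SE 0.19, adjusted p 0.032). None of the 3 overlapped between groups, but each lost its call with some single libraries left out, control libraries among them. b2m kept its call only without A73, A78 or A83, and erap1a only without A73, A76, A81 or A83. tap2a lost it without A74, A75, A76, A77 or A80, with a value of 2.92 without A74. They were 3 of 25 tested genes of the class I list, against 7 with the replicate block, and the list's median was 0.44. psme2, a subunit of the proteasome activator PA28, had 14.1, 10.3 and 23.3 CPM in stimulated pools, against 3.39, 5.66 and 3.41 CPM in unstimulated pools (log2 1.93, SE 0.34, adjusted p 0.026; call lost without A74, A75 or A77). It was the member of 8 tested immunoproteasome genes that rose, while none of 36 constitutive proteasome genes did, with medians of 0.86 and 0.03 on the log2 fold change scale.

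Classical inflammatory genes gave no call. None of 39 tested cytokine and NF-kB genes passed by edgeR or by DESeq2, 3 had an unadjusted p under 0.05, and 1 was higher with the replicate block. The list's median log2 fold change was 0.11, and 31 of the 39 values were positive, next to 46.5% of all genes tested. In the pairs of A72, A73 and A74 by library order, 11, 29 and 32 of the 39 were higher. il1b had 0.546, 2.47 and 8.28 CPM in stimulated pools, against 5.7, 0.688 and 1.97 CPM in unstimulated pools (log2 0.46, SE 1.2, adjusted p 1.0). cxcl8a had 2.86, 3.58 and 4.51 CPM in stimulated pools, against 5.15, 4.35 and 1.67 CPM in unstimulated pools (log2 -0.02, SE 0.46, adjusted p 1.0). Both genes spread as widely within the groups as between them, and their sign depended on single pools: il1b was at -0.86 without A74 and cxcl8a at 0.29 without A75. tnfa had 4, 0 and 15 counts in stimulated pools, against 3, 0 and 0 counts in unstimulated pools, and was too low to test. irg1l, related to the itaconate-making enzyme of macrophages, had 11.7, 20.9 and 58.8 CPM in stimulated pools, against 5.9, 8.77 and 11.1 CPM in unstimulated pools, with a wide spread (log2 1.82, adjusted p 0.65). Its groups did not overlap, and it was the gene of this list that was higher with the replicate block (adjusted p 0.05 after rounding).

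Of 32 tested chemokine and receptor genes, 2 rose, both of the CXCL11 group, and 3 were higher by DESeq2. The gene the files call BX323596.2 and the reference cxcl11.3, whose mammalian counterpart attracts T cells through CXCR3, had 2.21, 1.41 and 1.55 CPM in stimulated pools, against 0.0575, 0.0688 and 0.0306 CPM in unstimulated pools (log2 4.98, SE 0.48, adjusted p 0.00052). cxcl11.5 had 0.364, 0.646 and 0.479 CPM in stimulated pools, against 0.0575, 0 and 0 CPM in unstimulated pools (adjusted p 0.029), which in the unstimulated group rests on 2 counts, and its call was lost without A73, A74, A76, A77, A78 or A82. These were among the genes in which A74 was not the highest pool. ccl19a.1 had 2.08, 3.64 and 8.28 CPM in stimulated pools, against 1.35, 1.18 and 0.81 CPM in unstimulated pools (log2 2.07, adjusted p 0.084; 2.44 and adjusted p 0.013 without A72). Its groups did not overlap, and it passed by DESeq2 (adjusted p 0.00091). The chemokine list had a median log2 fold change of 0.09. IL4I1, a secreted amino acid oxidase of immune cells that stood in the interleukin list by name, had 6.3, 4.37 and 22 CPM in stimulated pools, against 0.777, 0.675 and 0.321 CPM in unstimulated pools (log2 4.22, SE 0.61, adjusted p 0.0068; call lost without A77, value 3.19 without A74). It was the member of 37 tested in that list that rose. namptb, of NAD salvage, had 39.9, 39.2 and 57 CPM in stimulated pools, against 23.9, 24 and 24.3 CPM in unstimulated pools (log2 0.92, SE 0.14, adjusted p 0.0087; call lost without A75 or A77).

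**Figure D3:**
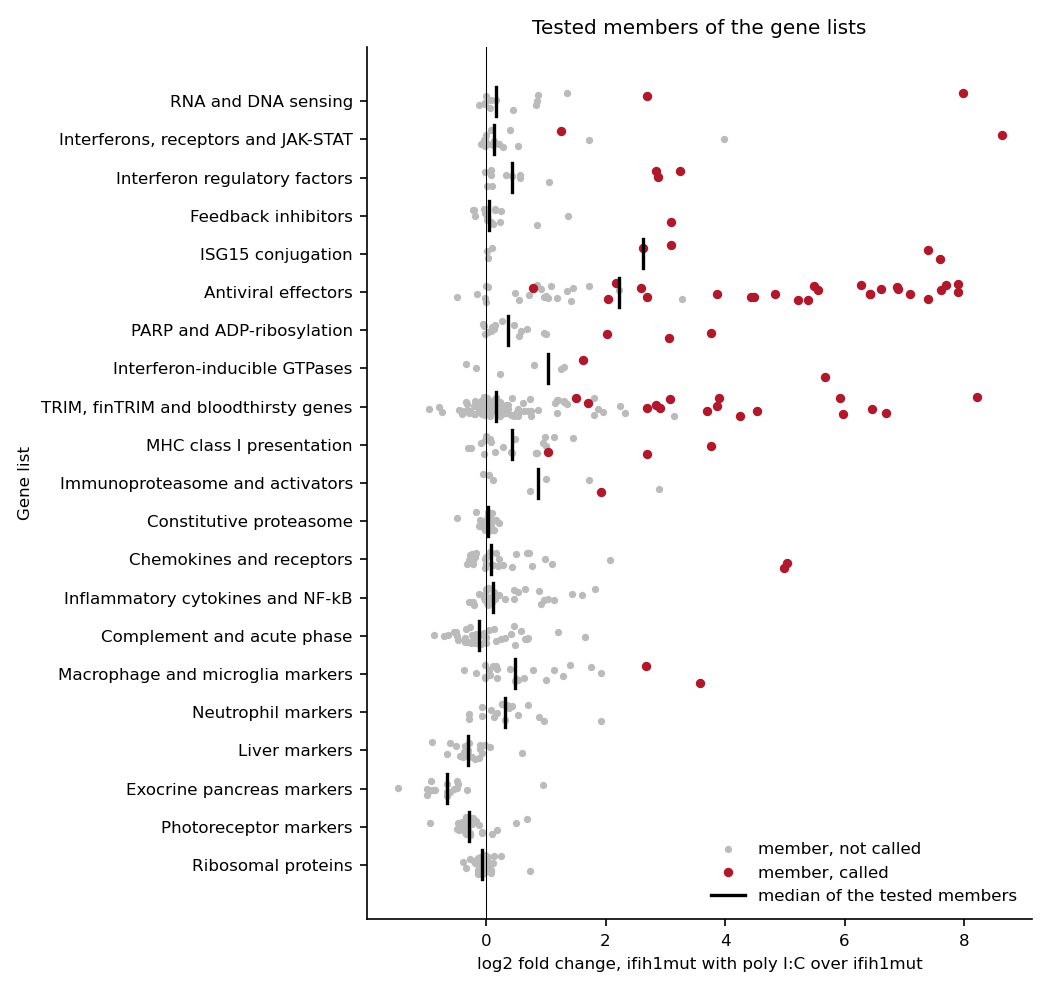
Log2 fold changes (poly I:C over no stimulation in ifih1mut larvae) of the tested members of 21 gene lists, 1 point per gene, red where the member passed the threshold, with a black bar at each list's median. Antiviral effectors (25 of 47 higher) and ISG15 conjugation (4 of 7) reach far to the right, and exocrine pancreas genes lie mostly to the left. Inflammatory cytokines (0 of 39 called) have their median near 0, with 31 of the 39 above 0.

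Macrophages are immune cells with a strong interferon response, and their markers were read beside these results. Of 25 tested macrophage and microglia markers 2 rose, next to 5 with the replicate block and 7 by DESeq2, and 10 had an unadjusted p under 0.05, all higher. The median of the log2 fold changes was 0.48, and 20 of them were positive. In all 3 pairs of pools taken by library order, 14 of the 25 were higher and 0 lower. Of all 26508 genes tested, 2848 were higher and 3205 lower in all 3 pairs. The summed level of the list was 1120 to 1450 CPM in stimulated pools and 915 to 1560 CPM in unstimulated pools, so the groups overlapped. Neither of a pair of widely used markers, picked after their values were seen, passed. mpeg1.1 had 0.755, 0.969 and 1.69 CPM in stimulated pools, against 0.662, 0.633 and 0.688 CPM in unstimulated pools (log2 0.78, adjusted p 1.0), and csf1ra had 23.2, 22.4 and 22.3 CPM in stimulated pools, against 25.1, 21.8 and 17.9 CPM in unstimulated pools (log2 0.07, adjusted p 1.0). The groups did not overlap for mpeg1.1 but did for csf1ra. The 2 markers that rose encode galectin-3-binding proteins. lgals3bpb had 60.7, 39.1 and 84.7 CPM in stimulated pools, against 11.1, 11.5 and 6.31 CPM in unstimulated pools (log2 2.67, SE 0.3, adjusted p 0.0011). Its neighbour lgals3bpa had 4.89, 7.9 and 22.9 CPM in stimulated pools, against 1.24, 1.38 and 0.382 CPM in unstimulated pools (log2 3.58, adjusted p 0.026; 2.69 without A74, call lost without A74, A75, A76, A77 or A79). No neutrophil marker of 19 tested passed by edgeR or DESeq2, and 1 had an unadjusted p under 0.05. The sum of the neutrophil list was 194 to 327 CPM in stimulated pools and 207 to 220 CPM in unstimulated pools, and mpx, the neutrophil peroxidase gene, had 26.6, 28.9 and 30.8 CPM in stimulated pools, against 25.6, 18.7 and 21.9 CPM in unstimulated pools (log2 0.38, adjusted p 1.0). A part of immune cell numbers in the gene changes was not tested.

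Few genes fell, and by little. The 2 that passed the threshold were si:dkey-4p15.5 on chromosome 15 (19681718-19688389) and an assembled transcript on an alternate contig, which the deposited annotation likens to Svep1. si:dkey-4p15.5 had 36.7, 38.9 and 36.3 CPM in stimulated pools, against 56.6, 53.5 and 46.2 CPM in unstimulated pools (log2 -0.48, SE 0.09, adjusted p 0.044). The assembled transcript had 60.7, 64.3 and 67.7 CPM in stimulated pools, against 91.2, 113 and 84.4 CPM in unstimulated pools (log2 -0.58, SE 0.11, adjusted p 0.031). Neither overlapped between groups. si:dkey-4p15.5, named after its values were seen, kept its call only without A77 or A83, and the assembled transcript only without A77, A81, A82 or A83.

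With the replicate block 259 genes were higher (0.977%) and 18 lower (0.0679%), and all 181 genes were among the 259. The lower ones included digestive and liver genes, named after their values were seen. cel.1, a pancreatic lipase gene, had 4.74, 3.58 and 2.2 CPM in stimulated pools, against 7.13, 8.25 and 5.53 CPM in unstimulated pools (blocked log2 -1.05, adjusted p 0.018, and 0.88 without the block). ela3l, a pancreatic elastase gene, had 15.7, 15.7 and 11.3 CPM in stimulated pools, against 26.6, 35.6 and 17.2 CPM in unstimulated pools (blocked log2 -0.85, adjusted p 0.04, and 0.9 without). prss59.2, a trypsin-like protease gene, had 57.2, 65.2 and 58.5 CPM in stimulated pools, against 80.3, 133 and 73.4 CPM in unstimulated pools (blocked log2 -0.61, adjusted p 0.031, and 0.83 without). All 3 genes were lower in every pair of pools, as were 3205 of all 26508 genes tested. The blocked test that picked them uses the same pairs, so this is no separate support. mbpa, the myelin basic protein gene, had 42.1, 46.4 and 36 CPM in stimulated pools, against 58.6, 57.1 and 48 CPM in unstimulated pools (blocked log2 -0.4, adjusted p 0.014, and 0.7 without).

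Of the lists of tissue genes, those of exocrine pancreas, liver and photoreceptors lay mostly under 0, without a call in the unblocked test. Erythroid markers and lens crystallins lay mostly above 0, with 10 of 12 and 38 of 51 positive (medians 0.17 and 0.08). Epidermis markers had 10 of 21 positive, and neuron and glia markers 6 of 23 (medians -0.06 and -0.07). Of 17 exocrine pancreas markers 1 had a positive log2 fold change, with a median of -0.66 and a sum of 302 to 396 CPM in stimulated pools, against 422 to 789 CPM in unstimulated pools. The sums did not overlap. Of the 17, 12 were lower in all 3 pairs of pools, as were 8 of 21 liver and 23 of 34 photoreceptor markers. The same held for 3205 of all 26508 genes tested. Of 21 liver markers 2 had a positive value (median -0.30), with sums of 12700 to 14100 CPM in stimulated pools, against 13100 to 21000 CPM in unstimulated pools, which overlap. Of 34 photoreceptor markers 4 had a positive value (median -0.28), with 3750 to 5910 CPM in stimulated pools, against 5170 to 7060 CPM in unstimulated pools. In control larvae the same contrast gave medians of -0.28 for the pancreas list, 0.05 for the liver list and -0.38 for the photoreceptor list. No gene of these 3 lists passed by edgeR without the block or by DESeq2, while 5 pancreas, 4 liver and 2 photoreceptor genes had an unadjusted p under 0.05, all lower. With the block, 3 pancreas genes fell. None of 86 ribosomal protein genes, 28 muscle genes or 30 cell cycle genes passed by edgeR or DESeq2, and 0 of them had an unadjusted p under 0.05. Such p-values were fewer than an even spread would give over all genes, so this does not show stable levels. For the ribosomal protein, muscle and cell cycle lists the direction of change was as follows. The median log2 fold changes were -0.06, -0.04 and 0.06.

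The size of the response differed between the stimulated pools. A74 had the highest level in 170 of the 181 genes, A72 in 8 and A73 in 3, and A73 was the lowest in 130. The median ratio of A74 to A72 was 2.12, that of A74 to A73 was 2.7 and that of A72 to A73 was 1.26. When the pools were paired by library order, the 181 genes, whose groups do not overlap and which are therefore higher in any pairing, had median log2 ratios of 2.0 (A72 over A75), 1.68 (A73 over A76) and 3.12 (A74 over A77). The antiviral list gave medians of 1.31, 1.13 and 2.43, with 43 of 47 genes higher in each pair and 38 higher in all 3. Its 25 called members are among the 181 and so are higher in any pairing. Of all 26508 genes tested, 12987, 13142 and 13206 were higher in the 3 pairs and 2848 in all 3. Over all genes tested the medians were -0.0 in each pair, which the normalisation sets near 0. Other lists moved by smaller amounts between the pairs: the ribosomal protein list had medians of -0.1, -0.33 and 0.28, the inflammatory list of -0.27, 0.25 and 0.4, and the macrophage list of 0.15, 0.2 and 0.72. A part of these in the size of the response was not tested. A few genes did not follow A74. si:dkey-85k7.12 had 22.7, 1.14 and 5.69 CPM in stimulated pools, against 0.173, 0.165 and 0.306 CPM in unstimulated pools, and CR318588.3 had 15.3, 4.7 and 5.21 CPM in stimulated pools, against 0.662, 0.0826 and 0.168 CPM in unstimulated pools. Both were highest in A72, and were named after their values were seen. Without A72 their log2 fold changes were 3.97 and 4.14, next to 5.48 and 4.92 with all pools. si:dkey-85k7.12 lost its call without A75, A76 or A77. CR318588.3 lost it without A72, A76 or A77, and had 6.06 without A75.

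**Figure D4:**
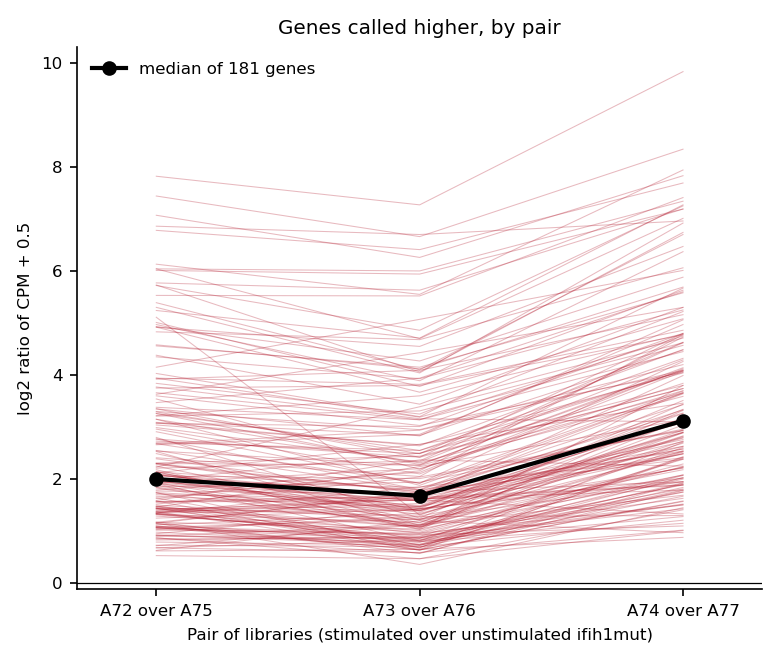
Log2 ratio of CPM + 0.5, stimulated over unstimulated ifih1mut larvae, in the 3 pairs of pools taken by library order, 1 thin line for each of the 181 higher genes and a black line for their median. The median was 2.0 for A72 over A75, 1.68 for A73 over A76 and 3.12 for A74 over A77, and every line stays above 0.

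The same comparison was made between the stimulated and the unstimulated control pools. In control larvae 0 genes passed the threshold by edgeR (0.0%) or by DESeq2, both without the replicate block. Some passed by DESeq2 with the block, as counted in the section on processing. In edgeR's test 367 of 26508 genes had an unadjusted p under 0.05, and 15 of the 181 genes were among them. An even spread of p-values would give 1325, so the lack of calls does not show that control larvae did not respond. Of the 181 genes, 135 (74.6%) had a positive log2 fold change in control larvae, compared with 48.8% of all genes tested, and their median log2 fold change was 3.79 in ifih1mut larvae and 0.25 in control larvae. In 25 of the 181 (13.8%) all stimulated control pools lay above all unstimulated control pools, as in 2.14% of all genes tested. A80 was the highest stimulated control pool for 49.7% of the 181 genes and for 32.0% of all genes tested. The summed level of the 181 genes was 604, 539 and 652 CPM in stimulated control pools, against 576, 545 and 515 CPM in unstimulated control pools. These sums differed little from those of unstimulated ifih1mut larvae (533, 538 and 511 CPM). A sum follows the genes of highest level and can hide others. rsad2 had 0.247, 0.06 and 1.81 CPM in stimulated control pools, against 0.267, 0.21 and 0.189 CPM in unstimulated control pools, with A80 the highest.

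The difference between the effects was itself tested. It passed for 41 genes (0.155%), all higher in ifih1mut larvae and all among the 181, with log2 differences from 1.95 to 9.86. Without adjustment 542 genes had p under 0.05, fewer than the 1325 that an even spread of p-values would give. The count changed with single libraries left out: no gene passed without A75, A76, A77, A78, A79, A81 or A82, 6 passed without A83 and 22 without A80. The 181 genes were chosen for high values in the stimulated ifih1mut pools, which this difference also uses, so its sign over the 181 is no separate support. irf7 had 4.14, 5.82 and 5.18 CPM in stimulated control pools, against 5.03, 5.45 and 5.01 CPM in unstimulated control pools, so those groups overlapped, and its log2 difference was 3.29 (SE 0.44, adjusted p 0.025). xaf1 had 0.185, 0.81 and 0.632 CPM in stimulated control pools, against 0.592, 0.745 and 0.473 CPM in unstimulated control pools, with a log2 difference of 5.72 (SE 0.68, adjusted p 0.019). dhx58 had 0.927, 0.57 and 3.49 CPM in stimulated control pools, against 0.716, 0.459 and 0.567 CPM in unstimulated control pools, with a log2 difference of 6.51 (SE 0.85, adjusted p 0.024). For dhx58 the pool A80 stood above the other control pools. The difference did not pass for rsad2 (log2 6.31, adjusted p 0.1) or cmpk2 (log2 5.6, adjusted p 0.16).

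**Figure D5:**
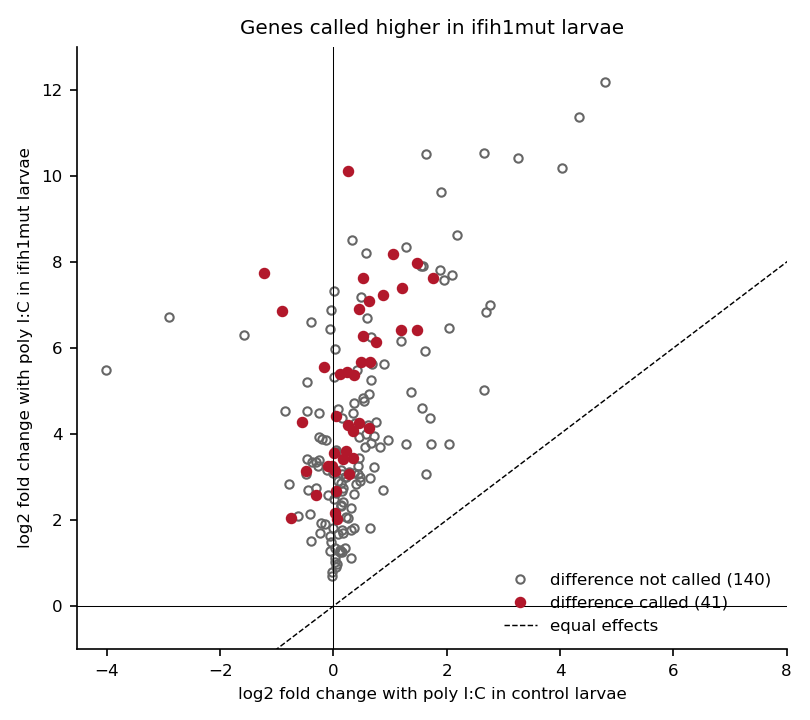
Log2 fold change of poly I:C in ifih1mut larvae against that in control larvae for the 181 genes, with the 41 genes whose difference of effects passed the threshold filled and the other 140 open. All points lie on the ifih1mut side of the line of equal effects, the side for which the genes were chosen, and most lie near 0 for control larvae.

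Many of the higher genes had no common name. Of the 181 genes, 83 had a gene name, 63 carried a clone name and 35 (19.3%) were assembled transcripts with no name, next to 18.6% of all genes tested, and 117 stood in none of the 38 gene lists. Of the 181, 27 lay on alternate contigs or unplaced scaffolds, where 0.695% of 3885 tested genes rose, a share close to that of all genes. CABZ01085275.1 on chromosome 4 (279669-282860) had 12.9, 9.51 and 23.4 CPM in stimulated pools, against 0.863, 0.799 and 0.795 CPM in unstimulated pools (log2 4.22, SE 0.32, adjusted p 0.00028). aste1a, a homologue of the fly gene asteroid, had 40, 44.7 and 125 CPM in stimulated pools, against 0.115, 0.207 and 0.275 CPM in unstimulated pools (log2 8.36, SE 0.78, adjusted p 0.00046; 7.64 without A74). Both groups of pools were far apart in each. The gene listed as SHISA4 (1 of many), shisa10.2 in the reference, had 3.69, 3.64 and 14.3 CPM in stimulated pools, against 0, 0.0138 and 0.0306 CPM in unstimulated pools, which is 3 counts in all (adjusted p 0.0013). tdp2a, which encodes an enzyme that frees trapped proteins from DNA ends, had 2.52, 2.64 and 10.7 CPM in stimulated pools, against 0.115, 0.151 and 0.138 CPM in unstimulated pools (log2 5.25, SE 0.76, adjusted p 0.0069; call lost without A76 or A77, 4.22 without A74). A gene listed as ascl1b, whose identifier the reference pairs with the clone name si:ch211-210p4.6, had 29.4, 24.3 and 51.5 CPM in stimulated pools, against 2.88, 4.49 and 3.61 CPM in unstimulated pools (log2 3.25, SE 0.29, adjusted p 0.00042), and its name is therefore uncertain. Genes of gig2, an interferon-stimulated family known from fish, rose in 3 of 4 tested members, with log2 fold changes of 2.91 for gig2o, 3.24 for gig2p and 4.1 for gig2d, the last of which lost its call without A74, A76 or A77. The gig2 family was chosen after its values were seen.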

How the data were processed

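Read counts per gene were used as deposited, unnormalised per the file headers, from 3 tables of 6 libraries each, joined into 32349 genes by 12 libraries. Of the 187002 counts that tables share, 0 differ. A gene missing from a table (6372 values) was set to 0, and such a gene can have at most 1 count there. The 36 columns of per-library normalised values were not used. The sources used here name no aligner, counting tool, strand setting or genome build. The deposited gene length, from the same tables per the file headers, served only for FPKM.

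All 12 libraries (4 groups of 3) were fitted with edgeR 4.0.16 (limma 3.58.1, R 4.3.3): TMM normalisation, genes of too few counts removed (minimum count 10, minimum total 15), and the quasi-likelihood test with Benjamini-Hochberg adjustment over 26508 genes. DESeq2 1.42.0 was an alternative. The scripts were tested on simulated data. Tables and figures used Python 3.11.15, pandas 2.3.3, numpy 2.4.6 and matplotlib 3.10.9. Libraries held 31876869 to 100839015 counts.

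Libraries at the same position in their groups deviated together: their deviations from the group means correlated at 0.275 to 0.817 in all 18 same-position pairs over 20192 genes, and at most at 0.145 in other pairs. The replicate block uses these positions, which come from the library codes.

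The groups, gene lists and members were chosen with earlier results of these data known. Named genes were ifih1, isg15, cmpk2, rsad2, irf7, mxa, il1b, tnfa, cxcl8a and a gene not reported here, then the 20 higher and 12 lower genes of largest log2 fold change with average log2 CPM of at least 0, no overlap and a gene name, then up to 4 called and 2 not called genes of each list by p, and the 3 lowest adjusted p in each direction of the difference. Others are said to be chosen after their values were seen. Promoter motifs were not analysed here.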

Additional observations from a re-analysis of the deposited data

Results flagged for a closer look

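Among the genes named by rule, 18 had a poly I:C effect that differed between ifih1mut and control larvae at an adjusted p under 0.05 by edgeR's test of the difference itself. Every one was larger in ifih1mut larvae. The rule named genes partly for their rise in the stimulated ifih1mut pools, which this test also uses, and partly by this test itself. Their shared direction is thus no separate support. Among sensors and regulators the log2 difference of effects, ifih1mut minus control, was 6.51 (SE 0.85) for dhx58 and 3.29 (SE 0.44) for irf7. It was 6.18 (SE 0.85) for isg15. Among antiviral effectors it was 6.47 for mxa, 7.11 for mxb, 7.79 for ifit10, 5.24 for helz2, 5.27 for znfx1, 4.97 for rnf213b and 5.72 for xaf1. Among GTPases and ADP-ribosyltransferases it was 5.04 for irge4, 2.79 for parp12a and 1.95 for si:ch211-219a4.3. It was 3.79 for the finTRIM gene ftr90 and 2.63 for lgals3bpb. Among genes without a settled name it was 3.97 for CABZ01085275.1, 6.35 for si:dkey-188i13.7 and 3.34 for the gene listed as ascl1b. Adjusted p-values ran from 0.019 to 0.043. No gene passed this test when A75, A76, A77, A78, A79, A81 or A82 was left out.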

How the results depend on the processing

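The 181 higher genes became 291 by DESeq2, 362 by DESeq2 with the replicate block and 99 in a fit of the 6 ifih1mut libraries alone, and 89 to 198 with 1 library left out. The 2 lower genes became 18 with the replicate block, 16 by DESeq2, 88 by DESeq2 with the block, 1 without the low-count filter, 0 in the 6 libraries alone, 0 at an absolute log2 fold change of at least 1, and 0 to 3 with 1 library left out. Leaving out a whole library set, an alternative chosen after seeing the data, gave 89, 49 and 54 higher genes and 0, 0 and 0 lower genes; the antiviral list then had 14 and 16 higher members without sets 2 and 3. The control comparison gave 24 genes by DESeq2 with the block. The 41 differing genes became 136 by DESeq2, 183 by DESeq2 with the block, 79 with the replicate block, 25 after thinning to the smallest library, and 0 to 60 with 1 library left out. The cause of these moves was not tested. Size factors by RLE, a filter at 1 CPM and an absolute log2 fold change of at least 1 left the count of higher genes within 1.5 times.

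Signs turned only in genes that were not called. cxcl8a was at 0.07 with the replicate block, 0.07 by DESeq2 with it, 0.08 with it in the 6 libraries, and -0.37 to 0.29 with 1 library left out. With 1 library left out il1b ran from -0.86 to 1.51, ube2l3a from -0.07 to 0.28 and hbbe3 from -0.22 to 4.24. For the called genes among those named by rule alone, 916 alternative values kept the call and 109 lost it. Of all 181 higher genes, 89 to 169 were still called with 1 of the 6 ifih1mut libraries left out.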
